A study of Mus musculus with 10 samples.

Results

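Transport of potassium and chloride across the RPE (retinal pigment epithelium), a pigmented sheet of cells behind the photoreceptors, was described through 9 genes: Kcnj13, Kcnj8, Abcc9, Kcnj10, Kcnq5, Best1, Clcn2, Slc12a2 and Atp1b1. They were chosen by name, as potassium channels and a channel subunit, chloride channels, a cotransporter and a pump subunit, out of 47729 genes in the count table. All 9 had enough counts to be tested, among 16362 tested genes. RNA released from the RPE of opened eyecups was sequenced in 5 CD1 mice, wild type, at postnatal day 40. In each mouse 1 eye, here the Nrf2 eye, had received AAV8 with Best1-Nrf2 together with 7m8 AAV with Best1-GFP, and the other, the GFP control eye, the GFP vector alone. AAV is a virus used to carry genes, injected here under the retina, and GFP is a fluorescent marker protein. In both vectors a human Best1 promoter, active in the RPE, drives the gene, and Nrf2, delivered as human cDNA, is a transcription factor that raises genes against oxidative stress. The Nrf2 eye thus carried an additional vector, and no eye with a matched dose of another vector was analysed here.

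The RPE is a sheet of cells joined by tight junctions, and it moves salt and water from the space around the photoreceptors towards the choroid. On the apical side, facing the photoreceptors, the sodium-potassium pump and a sodium, potassium and chloride cotransporter work, and an inward rectifier potassium channel lets potassium return, which also steadies the potassium around the outer segments in light and dark. On the basal side, chloride leaves through channels, and water follows the salt.

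Only the pair of Kcnj13 and Kcnj8, both genes of inward rectifier potassium channels, fell in the Nrf2 eyes at an adjusted p-value under 0.05 (edgeR quasi-likelihood test with the mouse as a block, adjusted over all tested genes). Kcnj13 fell by 1.35 on the log2 scale and Kcnj8 by 2.60. The other 7 did not pass, 3 with a negative and 4 with a positive log2 fold change. None was called higher by edgeR, and none of the 4 members with an unadjusted p under 0.05 was higher. DESeq2 called 3 members lower and 0 higher. Over all tested genes, edgeR called 6.33% in either direction, 2.73% lower and 3.60% higher, and DESeq2 called 3.83% of its tested genes lower. The median log2 fold change was -0.21 over the 9 members and -0.01 over all tested genes.

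The promoter sequences of Kcnj13 and Kcnj8 are shown because these members fell, and that of Abcc9 because it is the neighbour and channel partner of Kcnj8 and did not pass. Each stretch reads 5′ to 3′ on the minus strand, the strand of all 3 genes, from 250 bases before the RefSeq transcription start (GRCm38.p6) to the base before it. That of Abcc9 is 209 bases long, since the bases nearest its start lie in its first exon in GENCODE and were left out. Capitals mark a motif match. The positions are chr1:87394730-87394979 for Kcnj13, chr6:142571615-142571864 for Kcnj8 and chr6:142702316-142702524 for Abcc9.
Kcnj13: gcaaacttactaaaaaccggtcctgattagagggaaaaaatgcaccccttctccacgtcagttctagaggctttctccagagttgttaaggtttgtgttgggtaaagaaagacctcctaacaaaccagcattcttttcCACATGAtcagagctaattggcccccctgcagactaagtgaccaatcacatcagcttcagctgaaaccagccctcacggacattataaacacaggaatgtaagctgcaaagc
Kcnj8: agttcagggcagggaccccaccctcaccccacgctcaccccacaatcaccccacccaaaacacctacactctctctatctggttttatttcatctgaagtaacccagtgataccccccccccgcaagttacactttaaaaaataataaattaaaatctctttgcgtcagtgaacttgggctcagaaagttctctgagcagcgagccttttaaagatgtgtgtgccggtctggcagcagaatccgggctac
Abcc9: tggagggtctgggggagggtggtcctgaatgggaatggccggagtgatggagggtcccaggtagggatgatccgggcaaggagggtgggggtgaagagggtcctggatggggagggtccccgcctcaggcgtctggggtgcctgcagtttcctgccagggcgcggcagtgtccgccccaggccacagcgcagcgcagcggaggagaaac
The windows searched ran from 250 bases before to 50 bases after each start, on both strands, and 8 of the 9 members had at least 1 window in the RefSeq table. The 4 motifs were the core of the antioxidant response element (TGACNNNGC), which NRF2 binds, the M-box (TCATGTG) of MITF, the OTX site (TAATCC) and the E-box (CACGTG). They occurred in 12.4%, 3.77%, 7.06% and 7.15% of all 32851 windows. Kcnj13 held an M-box at position -112 from the start, on the other strand and so printed as its reverse complement. Kcnj8 held none of the 4 motifs. An OTX site began at position -1 from the start of Abcc9, outside the printed stretch, and another at position -227 from the start of Best1. No member window held the core of the antioxidant response element, and such matches describe letters only.

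The libraries held 12298404 to 27310638 counts, so that 3 counts, the limit that a count of 0 allows, were worth 0.110 to 0.244 CPM, which are counts scaled to a common library total, covering counting error only. Nfe2l2, the mouse gene of Nrf2, rose in 5 of 5 mice (88.7 ± 12.7 to 353 ± 53.6 CPM, n = 5 each, SD; log2 fold change 1.97, edgeR adjusted p = 0.000299, SE 0.11), and reads of the human cDNA could be counted there. RPE markers were abundant, with none of 18 at 0 in all libraries, and their summed level was 27754 to 53576 CPM in control and 14585 to 35458 CPM in Nrf2 eyes. Of these 18 genes, 9 were called lower and 0 higher by edgeR, with 10 lower and 0 higher both at an unadjusted p under 0.05 and by DESeq2. Their median log2 fold change was -0.56, and 4 of the 18 values were positive. RNA of rods stood apart in both eyes of mouse 2, where 13 rod genes summed to 26081 CPM in the control and 10326 CPM in the Nrf2 eye, against 832 to 4508 and 898 to 1188 CPM in the other mice. Of 12 tested rod genes, 1 had a positive log2 fold change, with a median of -1.05, and none passed by edgeR. The rod sum was lower in the Nrf2 eye of 4 of 5 mice. Of 13 macrophage and microglia genes 10 were called higher, and their sum was 295 to 379 CPM in control and 501 to 1883 CPM in Nrf2 eyes. All 12 skeletal muscle genes had positive log2 fold changes, with a median of 0.7, and none passed by edgeR. The muscle sum was 77.3 to 174 CPM in control and 15.3 to 922 CPM in Nrf2 eyes, lower in the Nrf2 eye of 2 of 5 mice. In bulk RNA, fewer cells of a type and less RNA per cell cannot be told apart.

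**Figure D1:**
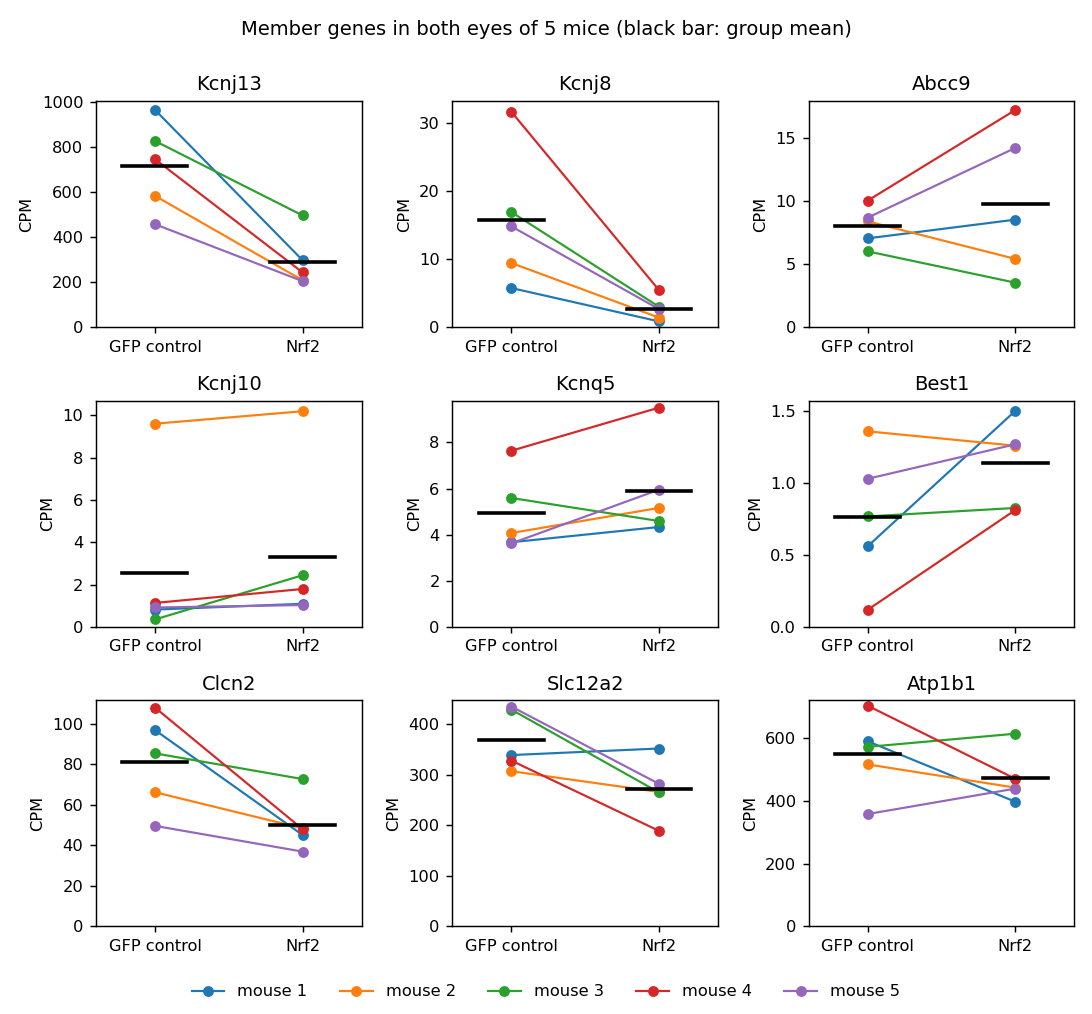
Levels of the 9 member genes in CPM (counts scaled to a common library total, y axes from 0) in the GFP control and Nrf2 eye of each of 5 mice, joined by a line per mouse, with black bars for group means. The lines of Kcnj13, Kcnj8 and Clcn2 all run downward, and those of Kcnj10 all run upward or nearly level, with mouse 2 far above the others.

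Among the potassium channels, Kcnj13 (ENSMUSG00000079436, chromosome 1, 87386363 to 87394729, minus strand, mm10) was the most abundant. It encodes the inward rectifier of the apical membrane of the RPE, and mutations of the human gene cause inherited retinal disease. Its levels were 966, 584, 828, 747 and 458 CPM in the control eyes of mice 1 to 5, and in their Nrf2 eyes 298, 209, 497, 244 and 205 CPM. Every Nrf2 eye was below the control eye of the same mouse, although the groups overlap, since the Nrf2 eye of mouse 3 exceeded the control eye of mouse 5. The mean fell from 717 ± 200 to 291 ± 121 CPM (n = 5 each, SD), a log2 fold change of -1.35 (edgeR adjusted p = 0.00395, SE 0.18). The fall was smallest in mouse 3, at -0.74, and lay between -1.69 and -1.16 on the log2 scale in the other mice. Kcnj13 passed in all 11 alternatives, with log2 fold changes from -1.45 to -1.24, and without mouse 2 it was -1.28 (adjusted p = 0.0214 by edgeR).

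Other RPE genes were lower in the same eyes. Of 18 RPE markers, 9 fell, their summed level was lower in the Nrf2 eye of 5 of 5 mice, and 7 had a more negative log2 fold change than Kcnj13. The share of its fall that goes with the amount of RPE RNA was not tested. A second gene also touches its count: Gigyf2, on the opposite strand, shares 623 of the 1270 exonic bases of Kcnj13. Gigyf2 fell from 95.2 ± 26.6 to 47.1 ± 9.54 CPM (n = 5 each, SD; log2 fold change -1.0, edgeR adjusted p = 0.00867, SE 0.17), lower in 5 of 5 mice. The strand setting of the counting was not given in the sources used here, so reads of the shared bases cannot be told apart.

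Kcnj8 (ENSMUSG00000030247, chromosome 6, 142564837 to 142571614, minus strand) encodes a pore subunit of potassium channels that close with ATP, known above all from pericytes and smooth muscle of vessels. Control eyes of mice 1 to 5 held 5.76, 9.43, 16.9, 31.6 and 14.8 CPM, from 113, 153, 242, 529 and 404 counts. Their Nrf2 eyes held 0.865, 1.42, 3.01, 5.45 and 2.67 CPM, from 19, 35, 80, 67 and 44 counts. It was the only member whose groups do not overlap, which 2.41% of all tested genes shared in this direction. Control eyes differed widely among mice, from 5.76 to 31.6 CPM, and so did Nrf2 eyes, yet each Nrf2 eye stood below its own control eye by nearly the same factor. The within-mouse differences were -2.60, -2.64, -2.45, -2.51 and -2.43 on the log2 scale. With 19 to 80 counts in the Nrf2 eyes, counting error alone can spread such differences more widely. Their closeness, and the SE drawn from it, should therefore not be read as a precise constant factor. The mean fell from 15.7 ± 9.91 to 2.68 ± 1.78 CPM (n = 5 each, SD), with a log2 fold change of -2.60 (edgeR adjusted p = 0.000286, SE 0.04). Kcnj8 passed in all 11 alternatives, with log2 fold changes from -2.61 to -2.53.

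No marker of pericytes and smooth muscle passed the test. Of 13 such genes, 12 were tested and 0 were called by edgeR, with 1 lower and 0 higher at an unadjusted p under 0.05 and 1 lower by DESeq2. Their median log2 fold change was 0.06. Their summed level was 1647, 917, 299.9, 364 and 768 CPM in control eyes of mice 1 to 5 and 298, 596, 449, 1297 and 636 CPM in their Nrf2 eyes. It was lower in the Nrf2 eye in 3 of 5 mice, and none of the 13 genes was at 0 in all libraries. With this list as a covariate, the log2 fold change of Kcnj8 was -2.60 (adjusted p = 0.000801 by edgeR). The covariate is the mean of a mixed list in few libraries, and the part of these cells in the fall of Kcnj8 was not tested. Of the 18 RPE markers, 2 had a more negative log2 fold change than Kcnj8. No other tested gene overlaps Kcnj8. Ldhb, the nearest tested gene on its lower side, had a log2 fold change of 0.32 (edgeR adjusted p = 0.196, SE 0.11).

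Abcc9 (ENSMUSG00000030249, chromosome 6, 142587862 to 142702315, minus strand) encodes the regulatory subunit that joins the Kcnj8 product in one channel, and it starts on the same strand, with 16248 bases between both genes. Its control levels in mice 1 to 5 were 7.04, 8.38, 6.01, 10.03 and 8.68 CPM. In their Nrf2 eyes it had 8.52, 5.41, 3.53, 17.2 and 14.2 CPM. The Nrf2 eye was the higher in mice 1, 4 and 5 and the lower in mice 2 and 3, and the groups overlap. The mean was 8.03 ± 1.55 CPM in control and 9.76 ± 5.78 CPM in Nrf2 eyes (n = 5 each, SD), with a log2 fold change of 0.07 (edgeR adjusted p = 0.941, SE 0.32). Its sign turned with the rod list as a covariate (-0.03), without mouse 4 (-0.06) and without mouse 5 (-0.07).

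The ratio of Kcnj8 to Abcc9 was compared within each eye to ask whether the RNA of both genes changed by the same factor. In bulk RNA of an eyecup the counts of both genes need not come from the same cells. The ratio thus does not give the make-up of a channel, and the cells behind it were not tested. Per kilobase of exon, Kcnj8 exceeded Abcc9 by 2.69, 3.70, 9.25, 10.3 and 5.60 times in the control eyes of mice 1 to 5. In their Nrf2 eyes the ratio was 0.334, 0.865, 2.80, 1.04 and 0.618. It was lower in the Nrf2 eye of 5 of 5 mice, and in 3 Nrf2 eyes Abcc9 exceeded Kcnj8. That count of eyes depends on the length taken for Abcc9 (8373 exonic bases, 7499 in its longest transcript), since mouse 4 stood at 1.04. The mean ratio was 6.32 ± 3.37 in control and 1.13 ± 0.968 in Nrf2 eyes (n = 5 each, SD). The mean within-mouse difference of the log2 ratio was -2.60 (SE 0.31, from -3.28 to -1.70; two-sided exact paired permutation test, p = 0.063). No smaller p can come from 5 pairs, so the design cannot reach 0.05 in this test.

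**Figure D2:**
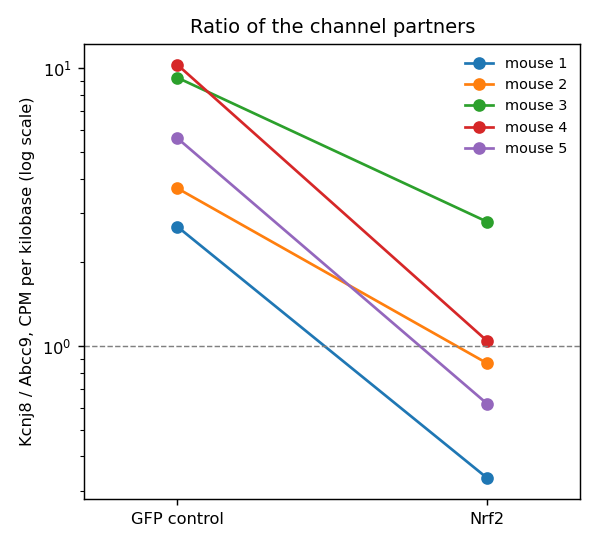
Ratio of Kcnj8 to Abcc9 in CPM per kilobase of exon (log scale) in the GFP control and Nrf2 eye of each of 5 mice, with a dashed line where the levels are equal. All 5 lines fall, from 2.69 to 10.3 in control eyes to 0.334 to 2.80 in Nrf2 eyes.

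Kcnj10 (ENSMUSG00000044708, chromosome 1, 172341210 to 172374085, plus strand) encodes the inward rectifier through which Mueller glia pass potassium in the neural retina. Mice 1 to 5 had 0.816, 9.61, 0.349, 1.13 and 0.915 CPM in control eyes, against 1.09, 10.2, 2.44, 1.79 and 1.03 CPM in Nrf2 eyes. Both eyes of mouse 2, the mouse with the most rod RNA, stood far above the others, and the part of neural retina in these values was not tested. The summed level of 11 Mueller glia markers was 1574 and 1584 CPM in the eyes of mouse 2, within the 1212 to 1867 and 1355 to 2512 CPM of their groups. Over these markers 9 of 11 log2 fold changes were positive, with a median of 0.42, and the sum was higher in the Nrf2 eye of 4 of 5 mice. None of the 11 passed by edgeR, with 2 higher and 1 lower at an unadjusted p under 0.05, while DESeq2 called 2 higher and 0 lower. Their part in the values of Kcnj10 was not tested. For Kcnj10 itself the Nrf2 eye was the higher in 5 of 5 mice, with a mean of 2.57 ± 3.95 CPM in control and 3.31 ± 3.90 CPM in Nrf2 eyes (n = 5 each, SD). The log2 fold change of 0.70 (edgeR adjusted p = 0.466, SE 0.45) did not pass and rested on mouse 3, whose difference was 2.50. Without mouse 3 it was 0.35, and without mouse 2 it was 0.96.

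Kcnq5 (ENSMUSG00000028033, chromosome 1, 21398403 to 21961942, minus strand) encodes a voltage-gated channel of the slow M-type current. It stood at 3.67, 4.07, 5.59, 7.64 and 3.62 CPM in the control eyes of mice 1 to 5, and in their Nrf2 eyes at 4.33, 5.16, 4.59, 9.51 and 5.95 CPM. Levels were higher in the Nrf2 eye of 4 of 5 mice, with mouse 3 the exception, and the groups overlap. The means were 4.92 ± 1.72 and 5.91 ± 2.11 CPM (n = 5 each, SD), with a log2 fold change of 0.25 (edgeR adjusted p = 0.617, SE 0.16). It was 0.44 without mouse 3 and 0.16 without mouse 5.

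Among the chloride channels, Best1 (ENSMUSG00000037418, chromosome 19, 9985174 to 10001633, minus strand) had the lowest mean level per kilobase of the 9 members in both groups, below Kcnj10 in 2 of 5 control and 3 of 5 Nrf2 eyes. It encodes bestrophin, a chloride channel opened by calcium whose human gene is mutated in Best macular dystrophy, and the vectors carry the promoter of the human gene, not this mouse gene. Its counts were 11, 22, 11, 2 and 28 in control eyes of mice 1 to 5 and 33, 31, 22, 10 and 21 in their Nrf2 eyes. That is 0.561, 1.36, 0.768, 0.119 and 1.03 CPM against 1.503, 1.26, 0.827, 0.813 and 1.27 CPM. The control eye of mouse 4 was under the limit of 3 counts, and no eye had more than 33 counts. The means were 0.766 ± 0.468 and 1.14 ± 0.304 CPM (n = 5 each, SD), with a log2 fold change of 0.70 (edgeR adjusted p = 0.492, SE 0.41). It was 0.45 without mouse 4, whose difference was 2.05, 0.46 with the rod list as a covariate and 0.99 without mouse 2. The Nrf2 eye was the higher in 4 of 5 mice, and the groups overlap. Fth1, which encodes the heavy chain of ferritin and lies 76 bases away on the opposite strand, rose from 1959 ± 324 to 5108 ± 233 CPM (n = 5 each, SD; log2 fold change 1.38, edgeR adjusted p = 0.00255, SE 0.07).

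Clcn2 (ENSMUSG00000022843, chromosome 16, 20702964 to 20717746, minus strand) encodes a voltage-gated chloride channel whose loss in mice leads to degeneration of photoreceptors. For mice 1 to 5 the control eye had 96.9, 66.2, 85.4, 108 and 49.6 CPM, and the Nrf2 eye 45.1, 48.4, 72.7, 48.0 and 36.9 CPM. In all 5 mice the Nrf2 eye was the lower, with log2 differences from -1.17 in mouse 4 to -0.23 in mouse 3, and the groups overlap. The mean of Clcn2 was 81.3 ± 23.6 CPM in control and 50.2 ± 13.4 CPM in Nrf2 eyes (n = 5 each, SD). Its log2 fold change of -0.69 (edgeR adjusted p = 0.0529, SE 0.19) lay just short of the threshold. It passed in 2 of 11 alternatives, DESeq2 (-0.68, adjusted p = 0.0039) and edgeR with no filter on low counts (-0.69, adjusted p = 0.0320).

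Slc12a2 (ENSMUSG00000024597) encodes the apical cotransporter that takes up sodium, potassium and chloride. Levels in mice 1 to 5 were 339, 307, 429, 328 and 435 CPM in control eyes and 352, 266, 265, 189 and 282 CPM in Nrf2 eyes. The Nrf2 eye was the lower in mice 2 to 5 and slightly the higher in mouse 1, and the groups overlap. The means were 368 ± 59.9 and 271 ± 57.8 CPM (n = 5 each, SD), with a log2 fold change of -0.47 (edgeR adjusted p = 0.162, SE 0.16). It passed in 1 of 11 alternatives, with the pericyte and smooth muscle list as a covariate (-0.50, adjusted p = 0.0353 by edgeR).

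Atp1b1 (ENSMUSG00000026576, chromosome 1, 164437109 to 164458355, minus strand) encodes a beta subunit of the sodium-potassium pump. Mice 1 to 5 had 590, 516, 572, 703 and 358 CPM in control eyes, against 397, 442, 614, 470 and 439 CPM in Nrf2 eyes. In mice 1, 2 and 4 the Nrf2 eye was the lower, and in mice 3 and 5 the higher. The means were 548 ± 126 and 473 ± 83.4 CPM (n = 5 each, SD), with a log2 fold change of -0.21 (edgeR adjusted p = 0.561, SE 0.18). It was -0.07 without mouse 4, -0.10 without mouse 1 and -0.10 with the rod list as a covariate. Atp1b1 shares 575 of its 3081 exonic bases with Nme7, on the opposite strand, whose log2 fold change was -0.24 (adjusted p = 0.492 by edgeR).

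Other neighbours of the members were read from the same fit. Thpo, on the strand of Clcn2 and 6708 bases from it, fell from 2.96 ± 1.26 to 1.12 ± 0.479 CPM (n = 5 each, SD; log2 fold change -1.41, edgeR adjusted p = 0.0415, SE 0.23), lower in 5 of 5 mice. Polr2h and Fam131a, on the strand opposite to Clcn2, share 82 and 85 of its 6022 exonic bases and had log2 fold changes of 0.01 and 0.23. Gsta3, a glutathione transferase gene 132742 bases from Kcnq5, rose from 193 ± 46.0 to 849.7 ± 136 CPM (n = 5 each, SD; log2 fold change 2.14, edgeR adjusted p = 0.000257, SE 0.09). Gm26580, which shares 237 of the 7689 exonic bases of Kcnq5, had a log2 fold change of 0.12, and Rab3il1, 36 bases from Best1, one of 0.54 (edgeR adjusted p = 0.240). The remaining tested neighbours, Efhd1 and Ngef of Kcnj13, Cmas of Abcc9, Igsf8 and Pigm of Kcnj10, Gm38243 and Rims1 of Kcnq5, Eif4g1 of Clcn2, 4930511M06Rik and Fbn2 of Slc12a2, and Blzf1 and Gm32391 of Atp1b1, had edgeR adjusted p-values of 0.451 or more.

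**Figure D3:**
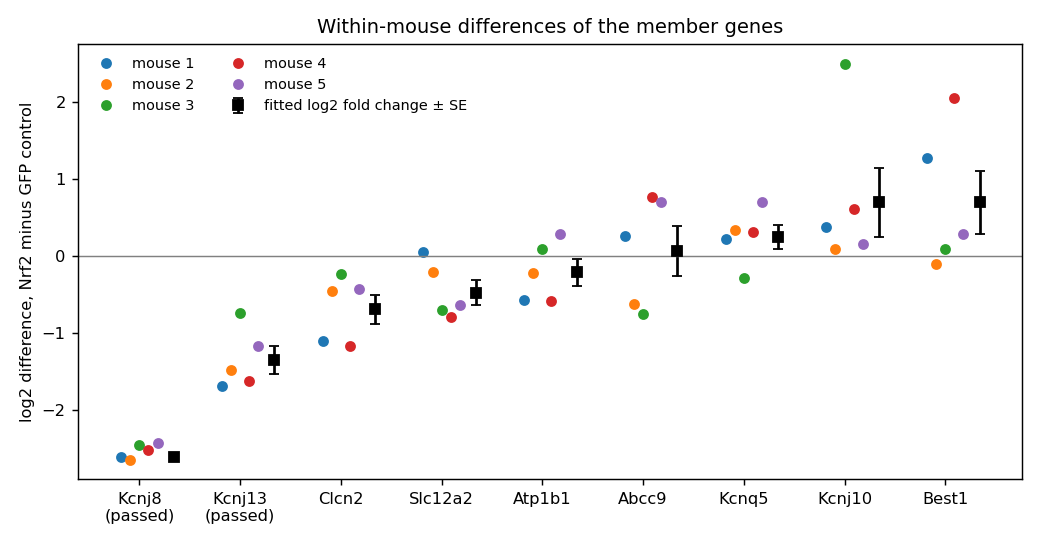
Difference between the Nrf2 and the GFP control eye of each of 5 mice (log2 CPM, y axis) for the 9 member genes, ordered by the fitted log2 fold change, which the black squares show with its SE. The 5 points of Kcnj8 lie between -2.64 and -2.43, while those of Abcc9 lie on both sides of 0.

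Levels were then set against each other as CPM per kilobase of exon, since longer genes gather more counts. In control eyes Kcnj13 stood highest (564 ± 158, n = 5, SD), followed by Atp1b1 (178 ± 40.8), Slc12a2 (33.7 ± 5.49), Clcn2 (13.5 ± 3.91) and Kcnj8 (6.16 ± 3.89). Abcc9 (0.959 ± 0.185), Kcnq5 (0.640 ± 0.224), Kcnj10 (0.474 ± 0.730) and Best1 (0.297 ± 0.181) lay under 1 CPM per kilobase on average. The ranges of neighbours in this order did not overlap down to Clcn2. Those of Clcn2 and Kcnj8 overlapped, although Clcn2 was above Kcnj8 in 5 of 5 eyes, and those of Kcnj8 and Abcc9 did not. Among the 4 lowest members the ranges of neighbours overlapped, while that of Abcc9 (0.717 to 1.198) lay above that of Best1 (0.0463 to 0.526): Abcc9 exceeded Kcnq5 and Kcnq5 exceeded Kcnj10 in 4 of 5 eyes each, and Kcnj10 exceeded Best1 in 2 of 5.

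In Nrf2 eyes Kcnj13 was at 229 ± 95.6 CPM per kilobase (n = 5, SD) and Atp1b1 at 153 ± 27.1, so that their ranges overlapped, with Kcnj13 the higher in 5 of 5 eyes. Slc12a2 (24.8 ± 5.29) and Clcn2 (8.34 ± 2.22) kept the third and the fourth place. Kcnj8, at 1.05 ± 0.698, lay among the low members, between Abcc9 at 1.17 ± 0.691 and Kcnq5 at 0.768 ± 0.274, with overlapping ranges on both sides. Kcnj10 (0.613 ± 0.721) and Best1 (0.440 ± 0.118) were again the lowest.

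**Figure D4:**
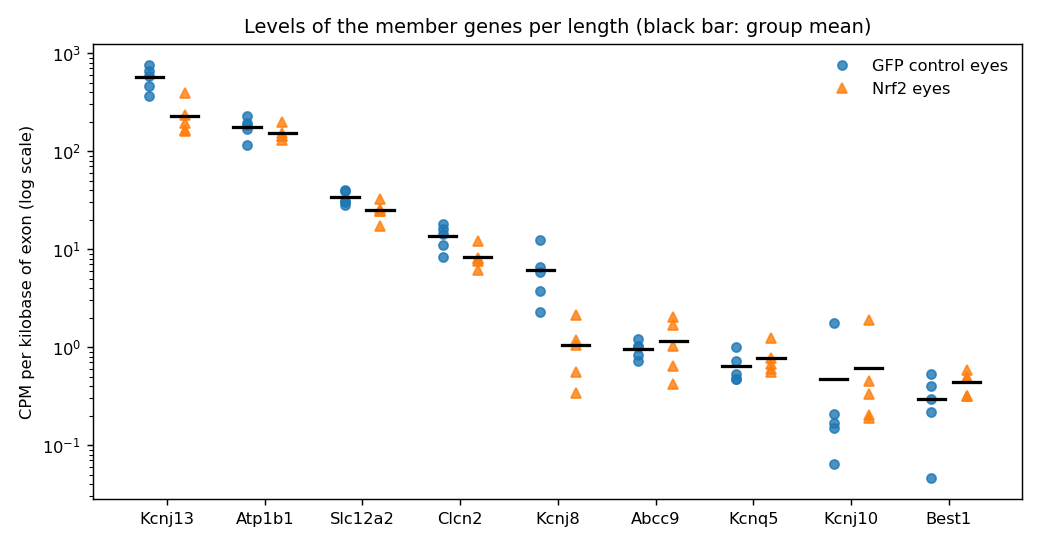
Level of each member gene in CPM per kilobase of exon (log scale) in the 5 GFP control eyes (circles) and the 5 Nrf2 eyes (triangles), with black bars for group means, ordered by the control mean. Kcnj13 falls from 564 to 229 on average, and Kcnj8 from 6.16 to 1.05, where it overlaps Abcc9 and Kcnq5.

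The genes whose profile was nearest to each member that fell were sought over the 10 libraries among 14355 protein-coding genes, by the root mean square difference of centred log2 CPM. The fall itself is part of these profiles, so the values are a description. Nearest to Kcnj13 was Slco1a4, a transporter of organic anions, with a difference of 0.14 on the log2 scale and a log2 fold change of -1.33. Arsg, Slc16a1, Cntnap4 and Inpp5k followed, each with a difference of 0.15 and with log2 fold changes of -1.24, -1.45, -1.18 and -1.58. All 5 were lower in 5 of 5 mice. The profile of Kcnj8 had no such close neighbour. However, Kcnj8 had 19 to 529 counts in an eye, against 2996 to 18942 for Kcnj13. Counting error is larger at low counts and raises such differences, so both sets of distances are not on equal terms. Its nearest genes, Gm13178, 1700019D03Rik, 1110002E22Rik, Nkain4 and Tcfl5, differed from it by 0.69, 0.73, 0.76, 0.76 and 0.77. They fell by 1.77, 1.82, 2.34, 1.38 and 1.89 on the log2 scale, each less than Kcnj8.

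To see the members beside the rest of ion and water transport, 8 lists of 176 other genes were read from the same fit, of which 143 were tested. Of these, 11 fell (7.69%) and 3 rose, with a median log2 fold change of 0.00. Over all tested genes 2.73% fell and 3.60% rose. The count of 14 called genes is 9.79% of those tested, against 6.33% of all genes. The count moved with the processing: 20 were lower with DESeq2, 3 with the rod list as a covariate, 5 without the mouse block and 4 to 6 without any 1 mouse. The same fits called 1812, 493, 755 and 584 to 857 genes of the whole table in either direction. Without the block 2 of the listed genes rose. Without mouse 3, 4 fell and 1 rose, beside 714 genes of the whole table, so the higher share belongs to the main fit.

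Among the other inward rectifiers, none of the 6 tested genes passed by edgeR, with 1 lower and 0 higher at an unadjusted p under 0.05 and none by DESeq2. Their median log2 fold change was 0.47. Kcnj14 had the highest control level of them per kilobase, but in both eyes of mouse 2, at 262 and 147 CPM, it stood far above the other eyes (0.546 to 55.2 CPM). Of 6 tested KCNQ channels and KCNE subunits none passed by edgeR, with 2 lower and 1 higher at an unadjusted p under 0.05 and 1 lower by DESeq2.

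Of 35 other potassium channel genes 2 rose and 2 fell. Kcna2, a voltage-gated channel of the delayed rectifier type, fell from 25.7 to 42.7 CPM in control eyes to 7.35 to 23.6 CPM in Nrf2 eyes, without overlap (log2 fold change -1.41, edgeR adjusted p = 0.00527, SE 0.20), and passed in all 11 alternatives. Kcnab3, a beta subunit of such channels, had 1.53, 9.61, 1.19, 2.69 and 0.769 CPM in control eyes of mice 1 to 5 and 21.9, 38.3, 15.9, 25.0 and 19 CPM in their Nrf2 eyes. Its groups do not overlap, and it rose in 5 of 5 mice (log2 fold change 3.41, edgeR adjusted p = 0.00295, SE 0.41, 11 of 11 alternatives). Its relative Kcnab1 rose from 26.0 ± 6.34 to 59.2 ± 13.7 CPM (n = 5 each, SD; log2 fold change 1.17, edgeR adjusted p = 0.0159, SE 0.26), and its call was lost without mouse 3 or mouse 4. Kcnv2, a silent subunit of photoreceptor channels, was highest in both eyes of mouse 2, at 164 and 72.7 CPM. Its log2 fold change of -1.43 (edgeR adjusted p = 0.0435, SE 0.40) passed in 4 of 11 alternatives, and among those that left out a mouse only without mouse 5. Kcnk1, a background potassium channel and the most abundant of the list per kilobase, had 25.6 ± 5.81 and 31.5 ± 7.62 CPM (n = 5 each, SD; log2 fold change 0.28, edgeR adjusted p = 0.524, SE 0.25).

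Of 30 other chloride channel genes 1 rose, which is not reported here, and 1 fell, while DESeq2 called 1 higher and 4 lower. Clic6, the gene that fell and the most abundant of the list per kilobase, fell from 771 ± 192 to 469 ± 112 CPM (n = 5 each, SD; log2 fold change -0.72, edgeR adjusted p = 0.0308, SE 0.15). The call of Clic6 was lost without any 1 of the 5 mice.

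Among 12 cation-chloride cotransporters and their kinases 2 fell. Slc12a4, which carries potassium and chloride out of cells, fell from 129 ± 24.8 to 80.4 ± 12.2 CPM (n = 5 each, SD; log2 fold change -0.68, edgeR adjusted p = 0.0180, SE 0.15). Wnk4, a kinase that regulates these cotransporters, fell from 84.4 ± 18.7 to 46.7 ± 12.4 CPM (n = 5 each, SD; log2 fold change -0.88, edgeR adjusted p = 0.0211, SE 0.17). Both were lower in 5 of 5 mice, and both calls were lost without mouse 2, mouse 3 or mouse 4, that of Wnk4 also without mouse 5.

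Among 13 genes of the sodium-potassium pump 2 fell. Atp1b2, another beta subunit, fell from 236 ± 94.9 to 135 ± 69.8 CPM (n = 5 each, SD; log2 fold change -0.84, edgeR adjusted p = 0.0192, SE 0.17), with the highest level of each group in mouse 2. Nkain4, whose product interacts with the pump, fell from 3.76 ± 1.3 to 1.48 ± 0.529 CPM (n = 5 each, SD; log2 fold change -1.38, edgeR adjusted p = 0.0214, SE 0.16). The call of Atp1b2 was lost without mouse 1 or mouse 3, and that of Nkain4 without any 1 of the 5 mice. Atp1b3, the most abundant of the list per kilobase, had 447 ± 108 and 520 ± 89.0 CPM (n = 5 each, SD; log2 fold change 0.21, adjusted p = 0.491 by edgeR).

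Of 25 genes of bicarbonate, proton and water transport 4 fell and none rose by edgeR, with 7 lower and 0 higher both at an unadjusted p under 0.05 and by DESeq2. The monocarboxylate transporter genes Slc16a1 and Slc16a8, which carry lactate across the apical and the basal side of the RPE, fell together. Slc16a1 had 827 to 1415 CPM in control and 300.1 to 769.9 CPM in Nrf2 eyes, without overlap (log2 fold change -1.45, edgeR adjusted p = 0.00427, SE 0.19), and passed in all 11 alternatives. Slc16a8 fell from 1665 ± 569 to 740 ± 259 CPM (n = 5 each, SD; log2 fold change -1.18, edgeR adjusted p = 0.0163, SE 0.21). Slc4a10, a sodium and bicarbonate transporter, fell by 1.92 (edgeR adjusted p = 0.0486, SE 0.51), and its Nrf2 eye of mouse 2, at 22.98 CPM, lay above the other Nrf2 eyes (1.21 to 7.18 CPM). Its call was kept without mouse 2 but lost without any other mouse, and that of Slc16a8 was lost without mouse 2 or mouse 5. The fourth, named after its values were seen, was Car12, a carbonic anhydrase, with a log2 fold change of -0.95 (adjusted p = 0.0149 by edgeR), lost without mouse 2. Aqp5, a water channel and the most abundant of the list per kilobase, ran from 324 to 7934 CPM in control and from 512 to 5051 CPM in Nrf2 eyes, and its log2 fold change of -0.21 (edgeR adjusted p = 0.928, SE 0.81) was smaller than its spread. None of 16 tested calcium channel genes passed by edgeR, with 2 lower and 1 higher at an unadjusted p under 0.05 and none by DESeq2. Cacnb2, a beta subunit and the most abundant of them per kilobase, had 29.7 ± 30.8 and 22.2 ± 19.2 CPM (n = 5 each, SD; log2 fold change -0.27, edgeR adjusted p = 0.767, SE 0.43).

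**Figure D5:**
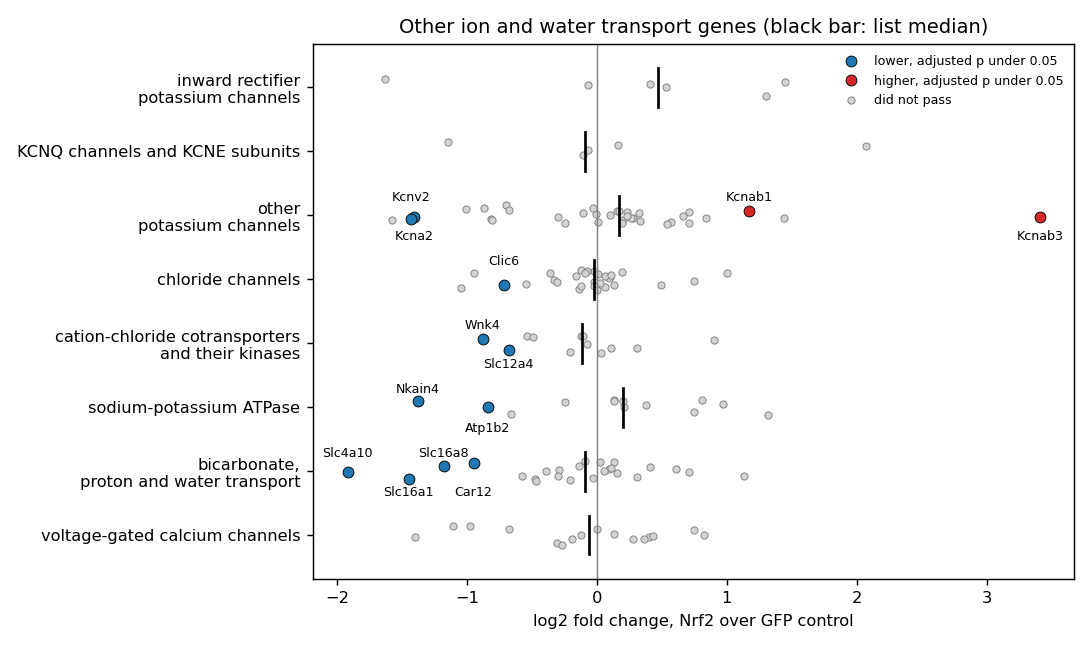
Log2 fold change of the Nrf2 over the GFP control eyes (x axis) for tested transport genes other than the members, by list (y axis), without 2 genes not reported here and with a black bar for the median of each whole list. Blue points mark the 11 that fell and red points the 2 shown that rose at an adjusted p under 0.05, named beside them, and list medians lie between -0.12 and 0.47.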

How the data were processed

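The labels assign 10 RPE libraries to 5 mice, each giving a treated and a control eye. Per the paper's methods, the neural retina was taken out, RPE RNA was released from the eyecup into a stabilizing reagent, and RNA purified from that liquid was amplified with a low-input kit and sequenced. The authors aligned reads with STAR to mm10, counted them per gene with featureCounts, and also quantified with Salmon (0.8.2 per the submitters' processing notes). The table deposited holds whole-number counts for each Ensembl gene, not normalized. Which counting made them, the strand setting and filters were not given in the sources used here. Of 47729 genes, 15729 had no count. Symbols, positions and exon lengths came from GENCODE M21, which holds 47310 (99.1%) of the identifiers.

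Counts were tested with edgeR 4.0.16 (R 4.3.3): filterByExpr, TMM, quasi-likelihood F test, block for the mouse, Benjamini-Hochberg adjustment over 16362 tested genes holding 99.8% of counts, threshold 0.05. The script was tested on simulated data. The SE comes from 5 differences within mice in log2 CPM, with a prior count of 2, and CPM use library totals. Alternatives were DESeq2 1.42.0, other size factors, no filter, no block, rod or pericyte lists as covariates, and leaving out each mouse. The table held 0 columns of other samples. Between libraries, chi-square per degree of freedom was at least 34.5, so no library was a copy.

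The pairing comes from the animal in the labels. Across genes, deviations from group means in both eyes of 1 mouse had r from 0.19 to 0.71, against a median of -0.08 (-0.42 to 0.28) between mice. Members and lists were chosen with earlier results of these data known. Named are the members, in each list up to 3 called genes per direction with the largest change and the gene with the highest control level per kilobase, the 5 nearest profiles, and tested genes overlapping or next to a member. The rule also names 2 genes that are not reported here, which stay in the counts.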

Additional observations from a re-analysis of the deposited data

How the results depend on the processing

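Kcnj13 and Kcnj8 kept their direction and their call in all 11 alternatives, and 2 or 3 members were called in each. The whole table gave 1036 genes, 1812 with DESeq2, which tested 19592 genes, 493 with the rod list as a covariate, and 584 to 857 without 1 of the mice (584 without mouse 2, 613 without mouse 4, 683 without mouse 5). With no replicate block, 755 genes passed, 687 of them shared. Both members then still passed, Kcnj13 at -1.30 (edgeR adjusted p = 0.0352) and Kcnj8 at -2.59 (0.0238), and no member changed its call. Of the other transport genes called lower, 11 in all, DESeq2 gave 20, the fit without the block 5, the rod covariate 3 and leaving out 1 mouse 4 to 6. Of the 3 called higher, DESeq2 gave 6 and leaving out 1 mouse 1 (without mouse 3) to 3. Clcn2 passed with DESeq2 (-0.68) and with no filter (-0.69), Slc12a2 with the pericyte covariate (-0.50). Abcc9 turned to -0.03 with the rod covariate and ran from -0.07 to 0.33 without 1 mouse. The cause was not tested. The Kcnj8 to Abcc9 difference was -2.65 with a prior count of 0.5 and -2.83 to -2.43 without 1 mouse. The order of levels changed without mouse 2, where Best1 and Kcnj10 traded places. Best1 had 2 to 33 counts in an eye.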
